A study of Mus musculus with 6 samples.

Results

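Oxidative phosphorylation subunits are the nuclear-encoded proteins of the mitochondrial respiratory chain and of ATP synthase. A fixed list of 51 subunit genes was read here by complex, in a comparison of 2 cell populations of mouse bone marrow. Every probe whose platform symbol or synonym was a listed gene was taken, and the probe with the highest mean log2 value stood for its gene. Of the 51 genes, 48 had a named probe, and 46 passed the filter on dim probes (a mean over the 6 arrays above the median of all probes), among 15440 genes and unnamed probes that passed. Cox7c, Cox8a and Atp5g1 had no named probe and were not analysed here. Ndufs1 and Sdha lay below the filter. The rule reads symbols and no measured value, although the list was drawn up with earlier results of these data known.

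The tested population was named monocyte-like precursors of granulocytes (MLPG), bone marrow cells with high Ly6C, on 3 arrays. It was set against granulocytic progenitors (GP), bone marrow cells with low Ly6C, also on 3 arrays. The series title places them in work on how PMN-MDSC, the granulocytic suppressor cells of cancer, build up. The labels of both groups give bone marrow as tissue and total RNA as material, and give no strain, age, genotype, treatment or tumour for either group. Separate animals are not stated for the replicates, and the spread that p-values rest on here may therefore be technical. Bulk RNA was read on 1 Illumina bead array per sample. Fewer cells of a type and less RNA per cell cannot be told apart, and because the deposited intensities share 1 distribution on all arrays, a change in the total RNA of mitochondrial genes relative to the cell cannot be seen.

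Electrons from NADH enter the chain at complex I and those from succinate at complex II, pass through ubiquinone to complex III, then by cytochrome c to complex IV, where oxygen is reduced. The proton gradient built on the way drives ATP synthase, complex V. Mature neutrophils are known for few mitochondria and a reliance on glycolysis, while their precursors and monocytes respire more.

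Marker genes were checked first. The 6 granulocyte progenitor markers, such as the granule protein genes Mpo and Elane, had summed intensities of 302319 to 320176 in MLPG and 311688 to 316061 in GP, with 3 higher and 3 lower in MLPG and 0 called. Most of this sum came from Mpo, Elane, Prtn3 and Ctsg, which lay close to the highest value on the arrays, 71674. Differences may be understated there, so near-equal sums do not show equal progenitor content. All 7 monocyte markers were higher in MLPG, with summed intensities of 45277 to 49777 in MLPG against 10475, 30377 and 18614 on GP arrays 1 to 3, and 1 was called. Of 7 eosinophil markers, 6 passed the filter and all 6 were lower, with sums of 4594 to 7734 in MLPG and 56506 to 132650 in GP, and 5 called. Of 6 mature neutrophil markers, 5 passed and all 5 were lower (21828 to 29065 in MLPG and 44695 to 76969 in GP, 2 called). Of 7 erythroid markers, 5 had a named probe and all 5 were lower (957 to 3056 in MLPG and 3342 to 7442 in GP, 0 called). Sums for basophil and mast cell markers were 1319 to 1444 in MLPG and 1913 to 2992 in GP, with 5 of 5 lower and 1 called. Megakaryocyte markers summed to 718 to 874 in MLPG and 1027 to 1454 in GP, macrophage markers to 10288 to 16967 and 12073 to 20356, B cell markers to 1987 to 2051 and 1592 to 1985, and T and NK cell markers to 40020 to 46714 and 30784 to 41969, each time MLPG before GP, with 0 called in these lists. The T and NK cell sum was mostly Nkg7, with means of 43089 in MLPG and 35905 in GP, and 2 of its 5 markers passed the filter. The macrophage sum was mostly Vcam1, with means of 12121 in MLPG and 13095 in GP. The macrophage gene C1qb was at 1384, 192 and 206 on GP arrays 1 to 3. With the replicate number as a block, the marker calls were 6 for monocytes, 3 for mature neutrophils, 5 for eosinophils, 3 for basophils and mast cells, 3 for erythroid cells, 1 for megakaryocytes and 0 for the other 4 lists. Of all features, 0.512% were called without the block and 4.08% with it. No marker can read 0 on this scale, whose lowest value is 88.2.

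The promoters below are shown because they carry the octamer GCATGCGC, the core read by the factor NRF1, which is known to drive many respiratory genes. Ndufa4 is added as the complex I member with the smallest p. Sequences are RefSeq windows of GRCm38.p6, the 250 bases before the annotated start, on the gene's strand. Capitals mark GCATGCGC or its reverse complement GCGCATGC, and TGACGTCA, the cyclic AMP response element. In Cox6a1 the octamer and its reverse complement overlap.
Cycs (chr6:50566570-50566819, minus strand): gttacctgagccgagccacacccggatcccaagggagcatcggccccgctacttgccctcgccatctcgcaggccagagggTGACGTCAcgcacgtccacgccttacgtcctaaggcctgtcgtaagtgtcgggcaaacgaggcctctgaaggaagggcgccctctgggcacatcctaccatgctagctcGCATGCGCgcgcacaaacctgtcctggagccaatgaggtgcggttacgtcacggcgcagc
Ndufa8 (chr2:36049339-36049588, minus strand): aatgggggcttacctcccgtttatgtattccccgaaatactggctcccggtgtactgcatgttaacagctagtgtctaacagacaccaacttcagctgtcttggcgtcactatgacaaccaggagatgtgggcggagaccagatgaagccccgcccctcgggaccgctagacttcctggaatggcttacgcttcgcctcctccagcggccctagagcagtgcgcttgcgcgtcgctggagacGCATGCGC
Sdhb (chr4:140961021-140961270, plus strand): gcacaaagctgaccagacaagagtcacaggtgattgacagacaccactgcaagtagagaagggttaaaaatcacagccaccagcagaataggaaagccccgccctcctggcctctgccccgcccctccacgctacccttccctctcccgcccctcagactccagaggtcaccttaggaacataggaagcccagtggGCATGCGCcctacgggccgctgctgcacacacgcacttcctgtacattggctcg
Cox6a1 (chr5:115348959-115349208, minus strand): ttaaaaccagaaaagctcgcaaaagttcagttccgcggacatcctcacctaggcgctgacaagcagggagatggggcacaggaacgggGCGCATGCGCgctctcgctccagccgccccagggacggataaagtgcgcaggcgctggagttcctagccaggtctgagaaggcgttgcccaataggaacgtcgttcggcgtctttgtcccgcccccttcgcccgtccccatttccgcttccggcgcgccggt
Ndufa4 (chr6:11907451-11907700, minus strand): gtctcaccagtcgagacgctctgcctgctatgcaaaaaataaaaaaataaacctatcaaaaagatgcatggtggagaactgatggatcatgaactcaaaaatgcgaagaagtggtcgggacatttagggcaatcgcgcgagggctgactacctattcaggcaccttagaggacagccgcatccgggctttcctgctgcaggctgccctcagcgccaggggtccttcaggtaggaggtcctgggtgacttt

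The table of promoters held 41 of the 51 members. GCATGCGC, searched on both strands, was found in 4 of these 41 (9.76%), against 2.26% of all 32851 windows and 2.56% of all 27025 genes. CCGGAAGT, the site of the ETS factor GABPA, was found in Uqcrh and Atp5h, 2 of 41 (4.88%), against 2.88% of all windows and 3.23% of all genes. TGACGTCA lay before Cycs and Uqcrfs1 (4.88%, against 1.55% of all windows and 1.77% of all genes), and AAGATGGC, a core of the factor YY1, before Atp5j (2.44%, against 1.56% of all windows and 1.83% of all genes). The windows end at the annotated start and hold no base after it. Among the 37 members with a window and a kept probe, the median log2 difference of MLPG minus GP was 0.09 for the 4 with GCATGCGC and 0.13 for the 33 without it.

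No member passed the gene test between MLPG and GP. limma called 0 of the 46 members at an adjusted p under 0.05, where 0.512% of all 15440 features were called (0.142% higher and 0.369% lower in MLPG), and 0 of 46 when the replicate number was a block, where 4.08% were called (1.49% higher). At an unadjusted p under 0.05, which 14.7% of all features met, there were 6 members, 5 higher in MLPG (Cycs, Ndufa4, Ndufc2, Ndufa5 and Ndufc1) and 1 lower (Uqcrq). Of all features, 7.23% met it with a higher and 7.42% with a lower value in MLPG. The lowest adjusted p of a member was 0.13 in limma and 0.062 with the block, both for Cycs.

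Small differences lay mostly on 1 side. Of the 46 members, 40 had a log2 difference above 0, against 51.7% of all features, and the median was 0.11, which is 1.08-fold, against 0.01 for all features. The values of the 3 MLPG arrays all lay above those of the 3 GP arrays for 15 members, where 10.7% of all features showed this, and all below for 1 member, where 9.66% did. In 24 members MLPG was higher in 3 of 3 same-numbered pairs of arrays (21.8% of all features), and in 2 members, Ndufa1 and Uqcrq, it was lower in 3 of 3 (20.8%). Members belong to shared complexes and are no replicates of one another, so no test stands behind these counts.

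The arrays also bound how large a difference could be. For 44 of the 46 members the 95% interval of the difference, not adjusted for the number of genes, lay within 1.5-fold in both directions, as it did for 82.4% of all features. The exceptions were Cycs, with an interval from 1.14-fold to 1.56-fold, and Uqcrq, from 0.665 to 0.939 times the GP value. No deposited value lies near 0, so background was probably left in. These bounds are therefore on the measured intensities, and a larger change in RNA is possible for dim probes. It is also possible for Atp5b, Atp5g3 and Cox5b, whose probes lay near the top of the scale. Within groups the median SD was 0.08 in MLPG and 0.09 in GP on the log2 scale for the members, and 0.11 and 0.14 for all features.

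**Figure D1:**
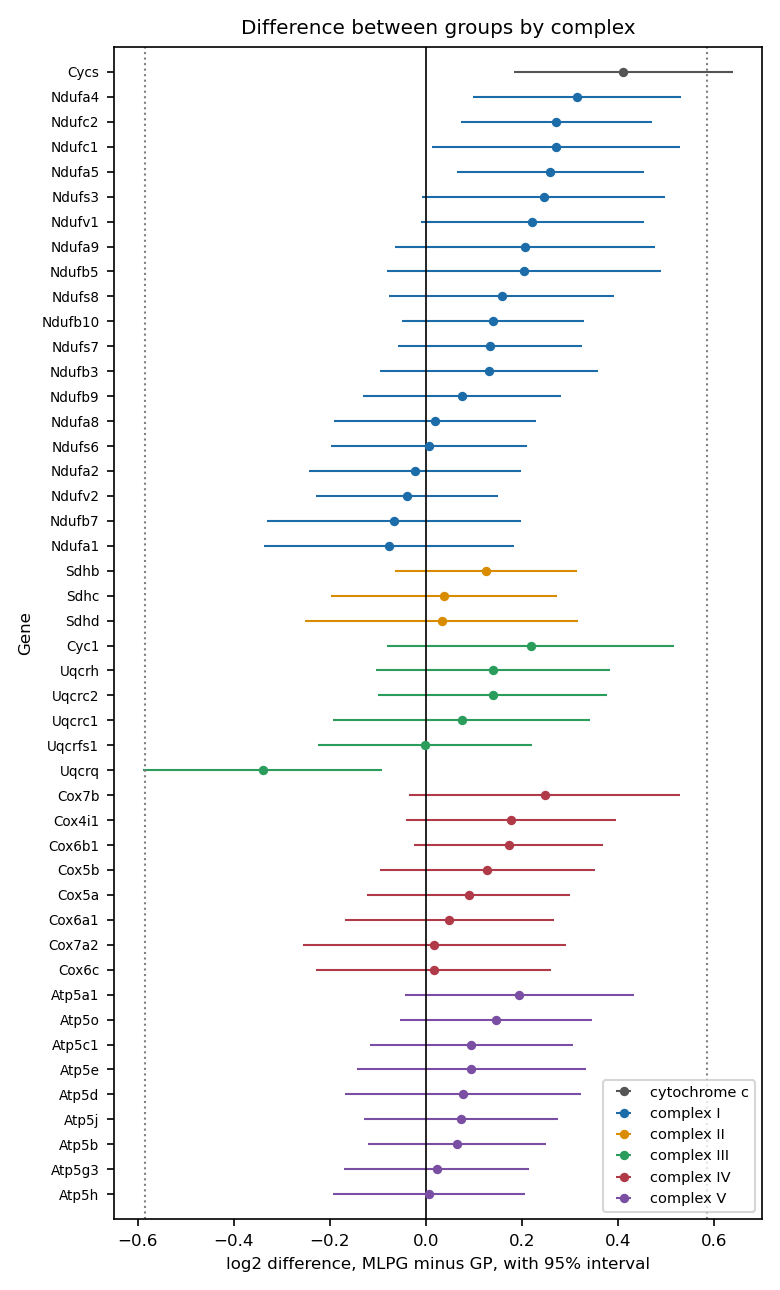
Log2 difference, MLPG minus GP, of the 46 members that passed the filter, with 95% intervals from limma, by complex and sorted within it. The dotted lines mark 1.5-fold. Most points lie right of 0 and close to it, with Cycs (0.41) and Uqcrq (-0.34) at the ends.

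Complex I takes electrons from NADH through a matrix arm of flavin and iron-sulfur subunits and pumps protons through a membrane arm. Of its 20 listed genes, 19 passed the filter, 15 were above 0 and 4 below, with a median of 0.14, and limma called 0, with 4 at an unadjusted p under 0.05. In 8 of the 19 the MLPG values all lay above the GP values, as they did for 10.7% of all features. Ndufa4 had the smallest p. It is named for complex I, with which it is counted here, and is now known as a subunit of complex IV. Ndufa4 was at 21415, 20018 and 19884 in MLPG arrays 1 to 3, against 17454, 16856 and 15033 in GP arrays 1 to 3. The groups did not overlap, and the difference was 0.32 ± 0.09 (SE), or 1.24-fold (adjusted p = 0.20, limma).

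Ndufc2, an accessory subunit of the membrane arm, was at 3172, 3028 and 2998 in MLPG and at 2707, 2461 and 2456 in GP. All 3 MLPG arrays stood above all 3 GP arrays, by 0.27 ± 0.09 on the log2 scale (adjusted p = 0.22, limma). A dimmer probe of Ndufc2, near background at a mean of 188 in both groups, differed by -0.003. Ndufa5, an accessory subunit of the matrix arm, was at 4950, 4578 and 4880 in MLPG against 4132, 3845 and 4057 in GP, a difference of 0.26 ± 0.08 (adjusted p = 0.23, limma), again without overlap. Its dimmer probe pointed the same way, at 0.31.

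The other subunits of complex I were closer together. Ndufc1 differed by 0.27 and by 0.21 on its 2 probes (adjusted p = 0.32 on the brighter, limma), with GP array 3 the lowest at 4195. Among the 5 kept core subunits of the matrix arm, the iron-sulfur protein Ndufs7 differed by 0.13, Ndufs8 by 0.16 and Ndufs3 by 0.25. The NADH-binding flavoprotein Ndufv1 differed by 0.22, while Ndufv2, its partner, differed by -0.04. The adjusted p of these 5 lay between 0.35 and 0.87 (limma). Ndufs3, Ndufs7 and Ndufv1 did not overlap between groups, where 10.7% of all features were higher in MLPG without overlap. GP array 1 held the lowest of the 6 values for 4 of these 5 core subunits, and for 0 of the 9 accessory subunits of the membrane arm, of which 6 had GP array 3 lowest.

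Of the remaining accessory subunits, Ndufa9 (0.21), Ndufb5 (0.20), Ndufb10 (0.14), Ndufb3 (0.13) and Ndufb9 (0.08) lay above 0. Ndufa8 (0.02) and Ndufs6 (0.01) also lay above it, and Ndufa2 (-0.02), Ndufb7 (-0.07) and Ndufa1 (-0.08) below it. The adjusted p of these 10 lay between 0.47 and 0.98 (limma). Probes of Ndufa8 (0.02 and -0.03) and of Ndufb10 (0.14 and -0.07) differed in sign. Ndufs1, the largest iron-sulfur subunit, was read by 1 probe at 143, 114 and 135 in MLPG and at 107, 124 and 119 in GP, under the filter value of 179.

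**Figure D2:**
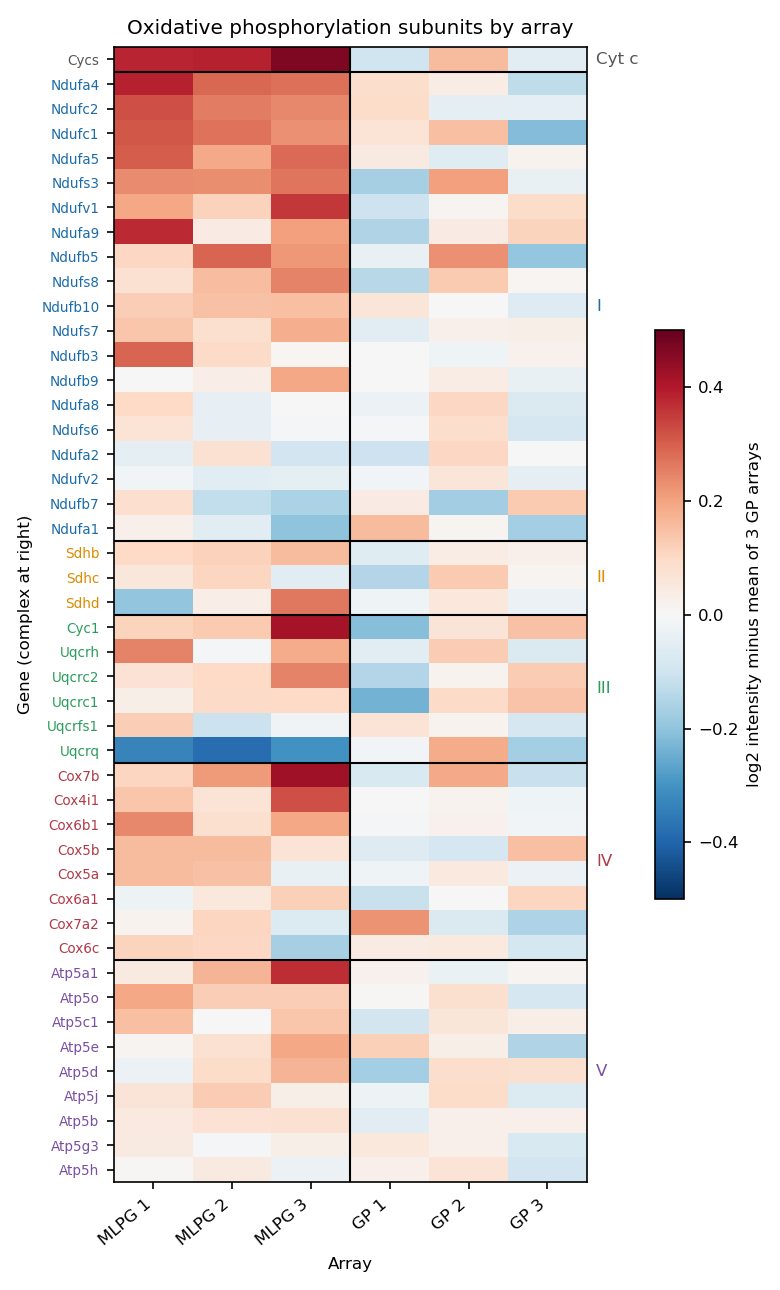
Each member's log2 intensity on each array minus the mean of its 3 GP arrays, with MLPG arrays on the left and GP arrays on the right, by complex. Red is above and blue below the GP mean. Cycs and the top of complex I are above it on all 3 MLPG arrays, Uqcrq is below it on all 3, and GP array 2 is often redder than GP arrays 1 and 3.

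Complex II, succinate dehydrogenase, also belongs to the citric acid cycle and is the one complex with no subunit encoded in mitochondrial DNA. Of its 4 genes, 3 passed the filter, all 3 were above 0, the median was 0.04, and limma called 0, with 0 at an unadjusted p under 0.05. The iron-sulfur subunit Sdhb was at 3296, 3331 and 3434 in MLPG and at 2946, 3154 and 3130 in GP. These groups did not overlap, and the difference was 0.12 ± 0.08 (SE, adjusted p = 0.54, limma), with 0.15 and 0.06 on 2 dimmer probes.

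The membrane anchors of complex II overlapped between groups. Sdhc was at 7474, 7750 and 6926 in MLPG and 6500, 7868 and 7254 in GP, a difference of 0.04. Sdhd was at 1042, 1223 and 1433 in MLPG and 1176, 1240 and 1170 in GP, a difference of 0.03, with the lowest and the highest of its 6 values both in MLPG. Their adjusted p were 0.91 and 0.93 (limma). Sdha, the flavoprotein that oxidises succinate, was below the filter, at 164, 160 and 141 in MLPG and 132, 135 and 137 in GP.

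Complex III passes electrons from ubiquinol to cytochrome c through cytochrome b, cytochrome c1 and the Rieske protein. All 6 of its listed genes passed the filter, 4 were above 0 and 2 below, with a median of 0.11 (0.05 without GP array 1), and limma called 0, with 1 at an unadjusted p under 0.05. That gene was Uqcrq, a small accessory subunit. Uqcrq was at 2913, 2818 and 2974 in MLPG and at 3631, 4171 and 3264 in GP. All MLPG values lay below all GP values, and the GP values were 1.27-fold higher (log2 difference -0.34 ± 0.11, adjusted p = 0.22, limma). A second probe of Uqcrq, dim at a mean of 212 in MLPG and 198 in GP, differed by 0.10, and the mean of both probes by -0.12.

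The other subunits of complex III lay between -0.00064 and 0.22. Cyc1, cytochrome c1, was at 8673, 8778 and 10693 in MLPG and 6926, 8394 and 8888 in GP, a difference of 0.22 ± 0.13 (adjusted p = 0.49, limma), which was 0.11 without GP array 1. The groups overlapped through GP array 3. The core protein gene Uqcrc2 was at 26633, 27095 and 30066 in MLPG and 22898, 25632 and 27645 in GP, a difference of 0.14 ± 0.10 (adjusted p = 0.59, limma), also with overlap. Uqcrh, the hinge protein, differed by 0.14 and the other core protein gene, Uqcrc1, by 0.07. The Rieske protein gene Uqcrfs1 differed by -0.00064 on a probe close to the filter value.

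Cytochrome c carries electrons from complex III to complex IV, and once released from mitochondria it triggers apoptosis. Its gene Cycs had the largest difference of the 46 members. On its brightest probe it was at 14944, 14981 and 15873 in MLPG and at 10693, 12803 and 11028 in GP. No GP value reached the lowest MLPG value, and the difference was 0.41 ± 0.10 (SE), 1.33-fold (unadjusted p = 0.0031, adjusted p = 0.13, limma).

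The other probes of Cycs differed from the brightest in size, and 1 of them in sign. A second was at 569, 654 and 684 in MLPG and 596, 590 and 591 in GP, a difference of 0.10. The remaining probe was at 549, 435 and 543 in MLPG and 683, 583 and 576 in GP, a difference of -0.27 with all MLPG values below all GP values. With the mean of the 3 probes Cycs differed by 0.08. Which transcripts each probe reads was not checked here, and the RefSeq table lists 3 pseudogenes named after Cycs, which a probe may also read. Without GP array 2 the brightest probe differed by 0.49 and was called (adjusted p = 0.049, limma). Over 14 alternatives the adjusted p of Cycs ran from 0.049 to 0.71.

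**Figure D3:**
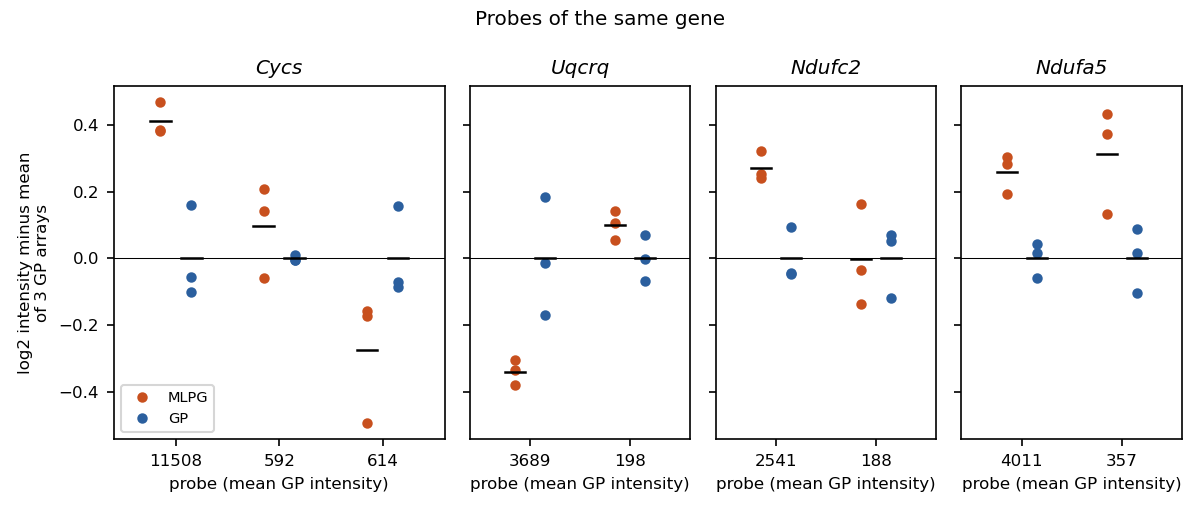
Log2 intensity minus the mean of 3 GP arrays for each kept probe of Cycs, Uqcrq, Ndufc2 and Ndufa5, probes named by their mean GP intensity, with MLPG points left of GP points and bars for means. The bright probes of Cycs and Uqcrq separate the groups by 0.41 and -0.34, their second probes differ by 0.10 and 0.10, and the third Cycs probe by -0.27. The Ndufc2 probes differ by 0.27 and -0.003, and both Ndufa5 probes lie above 0 (0.26 and 0.31).

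In all, 15 members had more than 1 kept probe, and in 8 of them the kept probes shared 1 sign. The 7 with mixed signs were Ndufa8, Ndufb10, Ndufc2, Uqcrq, Cycs, Atp5a1 and Atp5o. Counts of members above 0 rest on the brightest probe. With the mean of a gene's kept probes, 39 of 46 were above 0 and the median was 0.08.

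Complex IV, cytochrome c oxidase, passes electrons to oxygen at a core encoded in mitochondrial DNA, around which the listed Cox subunits are assembled. Of 10 listed Cox genes, 8 passed the filter, Ndufa4 being counted with complex I. All 8 were above 0, the median was 0.11, and limma called 0, with 0 at an unadjusted p under 0.05. Cox6b1 was at 29346, 26270 and 28409 in MLPG and 24729, 25166 and 24569 in GP. The groups did not overlap, and the difference was 0.17 ± 0.09 (SE, adjusted p = 0.40, limma). Cox4i1, the common isoform of subunit 4, was at 34269, 32611 and 38865 in MLPG and 31117, 31491 and 30660 in GP, again without overlap, a difference of 0.18 ± 0.09 (adjusted p = 0.44, limma), which was 0.10 without MLPG array 3.

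Cox7b, encoded on the X chromosome, had the largest difference of the 8 kept Cox genes and a dim probe. It was at 400, 430 and 498 in MLPG and 352, 424 and 343 in GP, 0.25 ± 0.12 (adjusted p = 0.40, limma), and GP array 2 lay inside the MLPG range. Cox5b (0.13), Cox5a (0.09), Cox6a1 (0.05), Cox7a2 (0.02) and Cox6c (0.02) overlapped between groups, with adjusted p between 0.60 and 0.97 (limma). The Cox5b probe lay within 1 log2 unit of the highest value on the arrays, 71674, where differences may be understated.

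Complex V, ATP synthase, turns a ring of c subunits and a central rotor inside the F1 head to make ATP, held in place by a peripheral stalk. Of its 10 listed genes, 9 passed the filter, all 9 were above 0, the median was 0.08, and limma called 0, with 0 at an unadjusted p under 0.05. Atp5a1, the alpha subunit of F1, was at 3931, 4283 and 4922 in MLPG and 3866, 3724 and 3842 in GP. Its MLPG values all lay above its GP values, by 0.19 ± 0.10 (SE, adjusted p = 0.44, limma), and a dimmer probe differed by -0.16.

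In the peripheral stalk, Atp5o, which encodes the oligomycin sensitivity protein, was at 29410, 28043 and 28043 in MLPG and 25845, 27190 and 24279 in GP. The groups did not overlap, and the difference was 0.15 ± 0.09 (adjusted p = 0.49, limma), with 0.21 and -0.07 on 2 dimmer probes. Atp5c1, the gamma subunit of the rotor, was at 32873, 29580 and 32679 in MLPG and 27826, 30961 and 30259 in GP, with overlap, a difference of 0.10 ± 0.09 (adjusted p = 0.69, limma). Atp5b, near the top of the scale, also did not overlap between groups. The rest of complex V lay between 0.01 and 0.09. They were Atp5e (0.09), Atp5d (0.08), Atp5j (0.07), the catalytic beta subunit Atp5b (0.07), the c subunit gene Atp5g3 (0.02) and Atp5h (0.01), with adjusted p between 0.73 and 0.98 (limma). Atp5b and Atp5g3 lay within 1 log2 unit of the top of the scale, with means of 67355 and 57109 in MLPG and 64371 and 56246 in GP.

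The mean log2 deviation of the 46 members from their own 6-array means was 0.06, 0.03 and 0.07 on MLPG arrays 1 to 3 and -0.08, -0.001 and -0.08 on GP arrays 1 to 3. GP array 2 thus lay nearest to the MLPG arrays. For all features the same means lay between -0.004 and 0.01. GP array 2 was the highest of the 3 GP arrays for 26 of the 46 members, against 35.7% of all features. GP array 1 was the lowest of the 6 arrays for 16 members (25.5% of all features) and GP array 3 for 18 (14.5% of all features).

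By complex, the array means separated the groups without overlap for complexes I, IV and V only. For complex I they were 0.10, 0.04 and 0.06 in MLPG and -0.08, -0.02 and -0.10 in GP. For complex IV they were 0.06, 0.06 and 0.05 in MLPG and -0.06, -0.035 and -0.08 in GP, and for complex V 0.02, 0.03 and 0.08 in MLPG and -0.06, 0.01 and -0.08 in GP. Complex III overlapped, with 0.02, -0.05 and 0.08 in MLPG and -0.12, 0.07 and -0.004 in GP, as did complex II, with -0.05, 0.05 and 0.09 in MLPG and -0.11, 0.04 and -0.03 in GP. Differences between complexes were not tested. GP array 2 also had the highest sum of monocyte markers among GP arrays, 30377 against 10475 and 18614, and the highest sum of eosinophil markers, 132650 against 56506 and 118305. Its sum of mature neutrophil markers was the lowest of the GP arrays, 44695 against 73787 and 76969. For basophil and mast cell markers it was the highest, 2992 against 1913 and 2114, as it was for megakaryocyte and B cell markers. For the remaining lists it lay between GP arrays 1 and 3. The part of these other cell types in the small shift of the members was not tested.

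**Figure D4:**
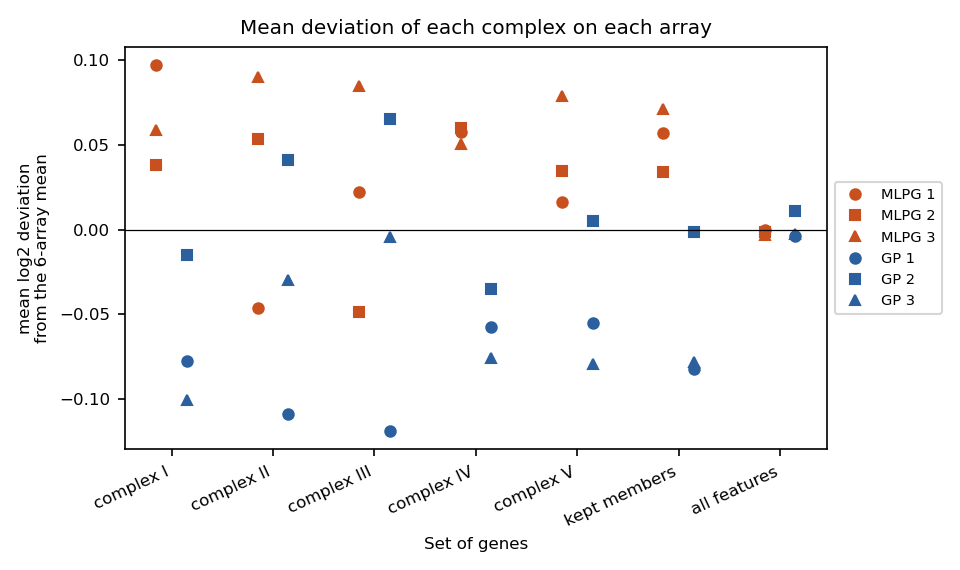
Mean log2 deviation from each gene's 6-array mean, over the kept members of each complex, over the 46 kept members and over all features, with MLPG arrays left of GP arrays and the symbol giving the replicate number. MLPG means are above GP means without overlap for complexes I, IV and V and for the 46 members, and all features stay near 0.

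Other genes of the pathway were read from lists set by function. None of the 121 kept genes passed the gene test in limma, with or without the replicate block, and percentages of all features at each threshold are those given for the members. Outside the list of 51, 24 subunit genes of complexes I, III, IV and V were kept, counting Atpif1, the inhibitor of ATP synthase. Of these 24, 19 were above 0, the median was 0.04, and 3 had an unadjusted p under 0.05, all higher. They were Ndufa12 (0.24), Atp5f1, now Atp5pb (0.26), and Atp5g2 (0.23), with adjusted p between 0.26 and 0.33 (limma). Atp5f1, of the peripheral stalk, was at 7358, 6776 and 7297 in MLPG and 6307, 5538 and 6071 in GP, without overlap, and the mean of its probes differed by 0.04. Ndufab1 (0.28), Uqcr10 (0.18), Uqcr11 (0.20) and Cox7a2l (-0.03) were the others named by the rule.

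Of the 13 subunits encoded in mitochondrial DNA, 8 had a named probe, all 8 passed the filter, 6 were above 0 and the median was 0.04. mt-Nd4l, of the membrane arm of complex I, was at 396, 354 and 432 in MLPG and 297, 290 and 290 in GP, without overlap, a difference of 0.43 ± 0.10 on a dim probe (adjusted p = 0.13, limma, and 0.052 with the block). mt-Nd5 was at 233, 224 and 242 in MLPG and 259, 254 and 261 in GP, a difference of -0.15 on a probe near the filter value. mt-Nd4, mt-Nd1 and mt-Cytb lay within 1 log2 unit of the top of the scale. Of 9 isoforms restricted to muscle, testis or other tissues, 8 had a probe and 3 passed the filter, and Cox6a2 (-0.16) and Cox6b2 (0.08) had adjusted p of 0.93 and 0.89 (limma).

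Assembly factors build the complexes without staying in them. Of 36 kept factors, 31 were above 0, the median was 0.14, and of 10 factors with an unadjusted p under 0.05 all 10 were higher. Sdhaf4, which helps to mature the flavoprotein of complex II, was at 2016, 2058 and 2112 in MLPG and 1434, 1785 and 1409 in GP, without overlap, a difference of 0.43 ± 0.11 (adjusted p = 0.16, limma). Ndufaf4, of complex I assembly, was at 4269, 4368 and 5742 in MLPG and 2394, 4153 and 3357 in GP, a difference of 0.56 ± 0.21 (adjusted p = 0.27, limma), which was 0.35 without GP array 1. Coa5, of complex IV assembly, differed by 0.29, Ndufaf1 by 0.24 and Ndufaf5, named after its value was seen, by 0.27. Without GP array 2, limma called 3 factors, Sdhaf4 (0.54, adjusted p = 0.037), Sdhaf3 (0.56, 0.037) and Uqcc2 (0.50, 0.046), the last 2 named after their values were seen. Over 14 alternatives the adjusted p of Sdhaf4 ranged from 0.037 to 0.44.

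Regulators of mitochondrial genes were spread on both sides of 0, with 9 of 16 above it. Tfb1m, which methylates mitochondrial ribosomal RNA, was at 1146, 1221 and 1243 in MLPG and 987, 893 and 782 in GP, a difference of 0.44 ± 0.11 (adjusted p = 0.14, limma). Lrpprc, which stabilises mitochondrial messenger RNAs, differed by 0.50 (adjusted p = 0.18), and the mitochondrial RNA polymerase gene Polrmt by 0.33 (0.24). The nuclear receptor gene Esrra, an activator of respiratory genes, was at 2052, 2039 and 1851 in MLPG and 2608, 2381 and 2371 in GP, a difference of -0.31 (adjusted p = 0.19, limma). These 4 genes had an unadjusted p under 0.05, and none overlapped between groups. Of all features, 10.7% were higher and 9.66% lower in MLPG without overlap. Nrf1, the gene of the factor NRF1, was at 4580, 4640 and 4336 in MLPG and 5715, 5081 and 4656 in GP. Its difference was -0.18 without overlap (adjusted p = 0.45, limma). Gabpa differed by -0.08 (adjusted p = 0.73, limma). Ppargc1b differed by 0.62 and Pprc1 by 0.30 (adjusted p = 0.42 and 0.59, limma), each with overlap between groups. Myc differed by 0.17, Tfam by 0.05 and Gabpb1 by -0.11, also with overlap. All regulators named here except Tfb1m and Lrpprc were named after their values were seen.

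Of 14 kept genes of the citric acid cycle and pyruvate dehydrogenase, 12 were above 0, with a median of 0.21 and 3 at an unadjusted p under 0.05, all higher. Idh3a, a subunit of the NAD-dependent isocitrate dehydrogenase, was at 3171, 3078 and 3382 in MLPG and 1844, 2657 and 2884 in GP, a difference of 0.41 ± 0.16 (adjusted p = 0.31, limma), which was 0.21 without GP array 1. Dlat differed by 0.28 (0.23) and Fh1, named after its value was seen, by 0.28 (0.33). Of 12 kept genes of ubiquinone synthesis and of other electron donors to it, 9 were above 0, with a median of 0.14. Coq6 (0.34, adjusted p = 0.19), Coq2 (0.26, 0.32) and Coq7 (0.34, 0.33) were higher at an unadjusted p under 0.05, Coq7 being named after its value was seen. In the list of carriers and uncoupling, the 8 kept genes were those of mitochondrial carriers and of the Vdac channels, and no uncoupling gene passed the filter. Of these 8, 7 were above 0, with a median of 0.11. The phosphate carrier gene Slc25a3 differed by 0.24 (adjusted p = 0.30) and Slc25a11 by -0.17 (0.51).

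**Figure D5:**
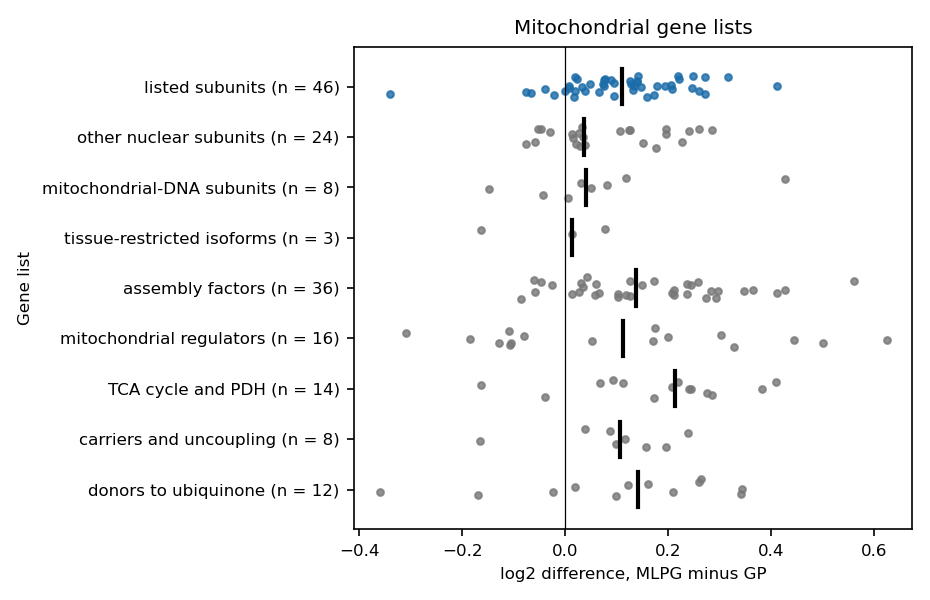
Log2 difference, MLPG minus GP, of each kept gene in the list of subunits and in the other mitochondrial lists, with a bar at each median and points spread vertically for view only. Medians lie between 0.01 (tissue-restricted isoforms) and 0.21 (citric acid cycle and pyruvate dehydrogenase, PDH), and no gene shown passed the gene test.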

How the data were processed

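Biotin-labelled RNA of 3 MLPG and 3 GP samples was hybridised to Illumina bead arrays. The deposited values used were linear intensity values of 45281 probes. Per the submitters' processing notes GenomeStudio was used, with no version or step stated. The 6 deposited intensity columns have the same median (179.3), lowest (88.2) and highest value (71674), as quantile normalization gives. No value lies near 0, so background was probably left in, which was not checked on raw signals. A second deposited table has 12 columns whose headers match no sample label, and they were not used. Arrays give no counts, and their number limits the precision.

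Symbols came from the platform annotation and were compared through Entrez identifiers with a GRCm38.p6 table (34807 probes matched, 0 symbols changed). Probes with a mean log2 above the median of all probes (7.48) were kept, and the brightest kept probe stood for a gene, which left 15440 features. limma 3.58.1 in R 4.3.3 (lmFit, eBayes) compared MLPG with GP on log2 values of all features without covariates, with calls at 0.05 after Benjamini-Hochberg adjustment. An exact permutation test of 3 against 3 cannot go below 0.1 (two-sided) and was not used.

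Same-numbered arrays deviated from their group means together (correlations of 0.38, 0.30 and 0.47 for numbers 1 to 3, all above 0.1), so replicate number was also fitted as a block. The data, not the labels, give this pairing. Members, gene lists, markers and tests were chosen with earlier results of these data known. Values on every array are given for the 3 members of each complex with the smallest p, all of complex II, and Cycs. From other lists the 2 genes with the smallest p are named, and others are said to be chosen after their values were seen. The promoter motifs were chosen after the data were seen. Alternatives were the block, cyclic loess, subtraction of the lowest value less 16, no filter, a filter at the 60th percentile, the mean of a gene's probes, array weights, an intensity trend, and leaving out each array.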

Additional observations from a re-analysis of the deposited data

How the results depend on the processing

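Over 14 alternatives, between 35 and 42 members were above 0, the 42 being out of 48 members without a filter. The members' median lay between 0.084 and 0.127, and the median of all features between -0.0044 and 0.012. The number of called features, 79, was 630 with the replicate block, 146 without a filter, 220 with array weights, and 2 to 348 with 1 array left out. It was 2, 3 and 2 without MLPG arrays 1, 2 and 3, 348 without GP array 2 and 25 without GP array 3. The block changed no call of a member or of a pathway gene, and raised the calls among markers as given with them. Among these alternatives a member was called only without GP array 2 (0 to 1 members with 1 array left out). With the mean of a gene's probes 3 members had an unadjusted p under 0.05, in place of 6. Complex medians with 1 array left out lay between 0.022 and 0.137 for complex II, 0.050 and 0.135 for complex III (0.065 with array weights), 0.087 and 0.134 for complex IV and 0.049 and 0.120 for complex V, and complex IV was at 0.089 with cyclic loess and 0.094 with the mean of probes. With 1 array left out, list medians lay between 0.013 and 0.107 for mitochondrially encoded subunits, -0.023 and 0.176 for regulators (0.0015 with array weights), 0.054 and 0.206 for donors to ubiquinone, 0.040 and 0.090 for other nuclear-encoded subunits, and -0.095 and 0.074 for the 3 tissue-restricted isoforms, and 0 to 3 assembly factors were called. The cause of these shifts was not tested.

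Members close to 0 changed sign in some alternatives, so no direction can be read for them. With 1 array left out the ranges were -0.161 to 0.0022 for Ndufa1, -0.074 to 0.030 for Ndufa2, -0.022 to 0.070 for Ndufa8, -0.153 to 0.00036 for Ndufb7, -0.034 to 0.052 for Ndufs6, -0.035 to 0.103 for Sdhc and -0.082 to 0.148 for Sdhd. They were -0.044 to 0.146 for Uqcrc1, -0.062 to 0.052 for Uqcrfs1, -0.0060 to 0.103 for Cox6a1, -0.032 to 0.107 for Cox6c, -0.058 to 0.131 for Cox7a2, -0.0067 to 0.132 for Atp5d, -0.015 to 0.049 for Atp5g3 and -0.040 to 0.041 for Atp5h. Outside the members they were -0.095 to 0.023 for Cox7a2l, -0.114 to 0.21 for Cox6b2 and -0.853 to 0.184 for Cox6a2. Of the 31 members that kept their sign, 25 moved by over 1.5 times in at least 1 alternative, as did 11 of 27 other genes followed over the alternatives. Examples are Cyc1 (0.112 to 0.292), Uqcrc2 (0.067 to 0.203), Atp5a1 (0.020 to 0.269), Ndufaf4 (0.347 to 0.744), Idh3a (0.213 to 0.536) and Atp5pb (0.037 to 0.300). With array weights Ndufa1 was at 0.0091, Uqcrfs1 at 0.054 and Cox6a1 at -0.0074. Cyclic loess gave -0.012 for Ndufs6, -0.0018 for Cox6c and -0.0099 for Atp5h, and the mean of probes -0.0068 for Ndufa8. Signal over background limits Ndufs1, Sdha, Uqcrfs1 and mt-Nd5, and the top of the scale limits Atp5b, Atp5g3 and Cox5b.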
